A study of Mus musculus with 8 samples.

Results

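The regulators of spermatogonial differentiation described here are 10 genes, *Kit*, *Sohlh1*, *Sohlh2*, *Dmrt1*, *Dmrtb1*, *Figla*, *Taf4b*, *Prdm13*, *Rhox13* and *Uchl1*. They were taken by symbol from tables of read counts for whole mouse testes, and all 10 were among the 40840 genes listed. The testes came from 4 wild type and 4 *Tra2b-cPEko* mice at 12 days after birth (P12), with replicates A to D in each genotype. All mice were on a C57BL/6J background. *Tra2b* encodes the splicing factor Tra2β, and its poison exon is a short, deeply conserved exon that leads to an mRNA without the full reading frame. By the genotypes the paper states, the wild type mice were *Tra2bPE* fl/+, with a single floxed allele and no Cre, and the *Tra2b-cPEko* mice were *Tra2bPE* fl/- with the *Vasa-Cre* transgene. That transgene acts in the germ line alone, starting before birth. The rest of a *Tra2b-cPEko* testis therefore had the floxed allele, with the exon in place, and the inherited deletion allele. The wild type mice carried neither the transgene nor the deletion allele, and effects of these cannot be told apart from effects of losing the exon in germ cells.

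Spermatogonia are the mitotic germ cells of the testis. The undifferentiated pool, which holds the stem cells, gives rise to differentiating spermatogonia under the influence of retinoic acid, and these divide several times before they enter meiosis. The receptor tyrosine kinase KIT and its ligand are the classical surface signal of that step, and the basic helix-loop-helix proteins SOHLH1 and SOHLH2, together with the DM domain proteins DMRT1 and DMRTB1 (DMRT6), are transcription factors needed for its proper order. At P12 the first wave of germ cells has reached early meiosis, so whole testes hold spermatogonia and early spermatocytes among many somatic cells.

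2 members, *Sohlh1* and *Figla*, were lower in all 4 *Tra2b-cPEko* mice than in any wild type mouse, as were 4.18% of all genes tested. Both encode basic helix-loop-helix factors, a family known to bind the letters CANNTG. The 250 bases before the start of each gene are shown, from RefSeq on GRCm38.p6, in lower case with the form CACGTG in capitals. Whether any such factor acts on these genes was not tested, and encoding one says nothing about a gene's own promoter. The *Sohlh1* stretch is chr2:25847249-25847498 on the minus strand and the *Figla* stretch is chr6:86016941-86017190 on the plus strand.
*Sohlh1*: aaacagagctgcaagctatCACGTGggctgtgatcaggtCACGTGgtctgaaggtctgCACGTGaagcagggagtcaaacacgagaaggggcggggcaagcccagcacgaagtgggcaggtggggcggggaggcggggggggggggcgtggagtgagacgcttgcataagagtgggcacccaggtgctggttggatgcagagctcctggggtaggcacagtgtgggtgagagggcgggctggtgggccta
*Figla*: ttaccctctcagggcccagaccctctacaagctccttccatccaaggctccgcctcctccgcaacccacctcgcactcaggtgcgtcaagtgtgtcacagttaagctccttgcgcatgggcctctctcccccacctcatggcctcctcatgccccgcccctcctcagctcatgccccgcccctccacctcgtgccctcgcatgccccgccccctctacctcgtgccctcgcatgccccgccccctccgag
CACGTG, which reads the same on both strands, stood 3 times in the *Sohlh1* stretch, beginning 231, 211 and 192 bases before the start, and not in that of *Figla*. It was chosen for the search after the *Sohlh1* sequence had been seen. In windows that also take in the 50 bases after the start, 7.15% of 32851 RefSeq promoters held CACGTG at least once and 0.0883% held it 3 times or more. Of the 10 windows used for 8 members, only that of *Sohlh1* held it, and no window was used for *Dmrt1* or *Taf4b*. The looser form CANNTG, which includes CACGTG, was in 72.3% of all windows and stood 3 times or more in 17.6%. There were 5 matches for *Sohlh1*, 4 for *Figla* and 3 in each *Dmrtb1* window, and 0 or 1 in the other windows used. A match to these letters is a description of the sequence, not a binding site.

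Libraries were deep, with between 36757386 and 59101569 reads counted on genes per mouse. Levels are given as CPM, the counts scaled to a common library size, after TMM scaling. The study's methods describe the mice as independent and mention that the exact age of P12 testes could vary the mix of cells. *Tra2b*, the gene whose poison exon was deleted in germ cells, stays otherwise in place, and its levels were 158, 166, 156 and 176 CPM in wild type and 200, 190, 192 and 209 CPM in *Tra2b-cPEko* replicates A to D (log2 fold change 0.27, adjusted p = 0.0552 from edgeR and 0.000195 from DESeq2), with all *Tra2b-cPEko* mice above all wild type mice. Counts per gene do not separate transcripts with and without the poison exon, so these values do not check the genotype. Germ cell markers were present in all 8 testes, with summed levels of 9 general germ cell genes between 1777 and 2124 CPM in wild type and between 1769 and 1873 CPM in *Tra2b-cPEko* mice. Sertoli cell genes, summed over 14, were at 6872 CPM or more in every mouse, so the tissue was mixed throughout. In bulk testes, fewer cells of a type and less RNA per cell cannot be told apart.

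Compared per length of the exons, in CPM per kb, members spanned a wide range in wild type testes. The length was that of all exons annotated for a gene in GENCODE, merged. For *Kit* it was 9470 bases, against 5335 in the longest coding transcript, so its place in the order depends on the length used. The ubiquitin hydrolase gene *Uchl1*, a spermatogonial marker also known from neurons, had the highest level at 103.8 CPM per kb, followed by *Dmrt1* at 90.8. *Rhox13* (38.9), *Sohlh1* (34.4), *Dmrtb1* (26.0), *Sohlh2* (20.6), *Taf4b* (18.0) and *Kit* (15.8) came next in these units, and *Figla* (3.61) lay far under them. *Uchl1* and *Dmrt1* overlapped between mice, as did *Rhox13* and *Sohlh1*, and *Taf4b* and *Kit*, whereas the other neighbours in this order did not overlap. *Prdm13*, a PR domain gene best known from the developing nervous system, was near 0. Its counts were 4, 0, 1 and 2 in wild type replicates A to D and 3, 3, 5 and 3 in *Tra2b-cPEko* replicates A to D. These few reads did not pass the filter on low counts, and *Prdm13* was not tested with it.

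The main comparison asked whether the genotype changed these genes. Of the 19104 genes tested by the quasi-likelihood method of edgeR, 30 (0.157%) passed a Benjamini-Hochberg adjusted p under 0.05, and 0.0262% were called and lower in *Tra2b-cPEko* testes. Of the 9 members tested, 1 was called, *Sohlh1*, which fell. With an unadjusted p under 0.05 there were 3 members lower, *Sohlh1*, *Figla* and *Rhox13*, and 0 higher, where 7.07% of all genes tested were lower and 8.22% higher by the same rule. Fold changes were below 0 in 8 of the 9 members and in 50.3% of all genes tested, and the median log2 fold change was -0.11 for the 9 members and -0.0011 for all genes. Groups did not overlap for 2 members, both lower, beside 4.18% of all genes that were lower and 4.36% that were higher without overlap. DESeq2, the tool the study used, called *Sohlh1* and *Figla*, where it called 1.14% of 18149 genes as lower.

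**Figure D1:**
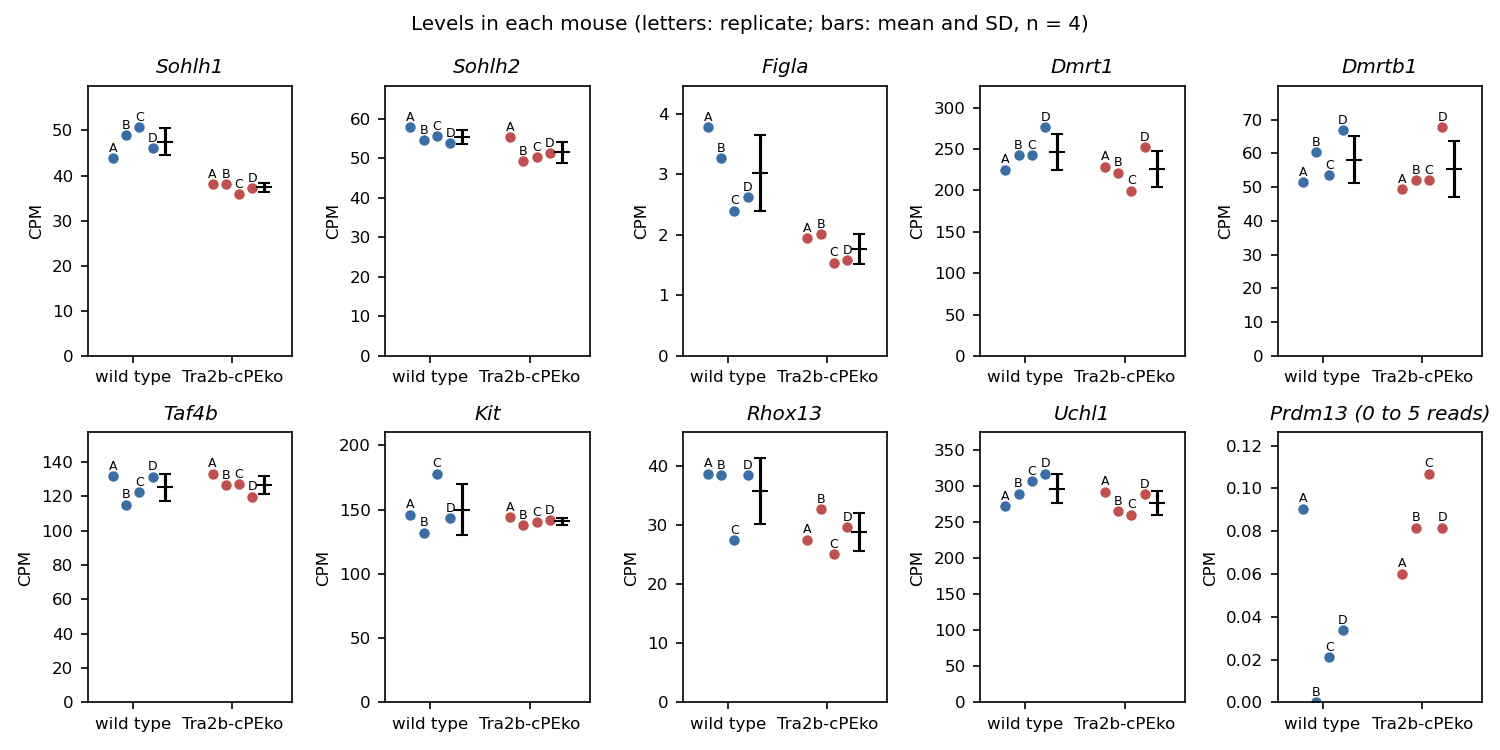
Level of each member in CPM (vertical axes, from 0) in each wild type (blue) and *Tra2b-cPEko* (red) mouse, with replicate letters; black bars are the mean and SD of 4 mice, left out for *Prdm13*, which had 0 to 5 reads. The 2 genotypes are apart for *Sohlh1* and *Figla* and overlap for the other members.

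**Figure D2:**
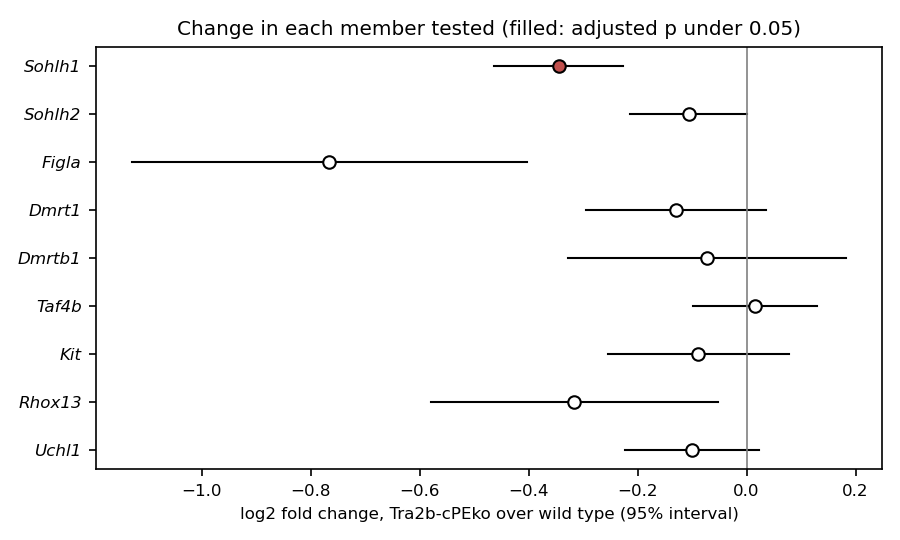
Log2 fold change of the 9 members tested (horizontal axis, *Tra2b-cPEko* over wild type) with 95% intervals from edgeR. *Sohlh1*, at -0.34, is filled as the 1 member with an adjusted p under 0.05, and *Figla* has the largest change, -0.77, with the widest interval.

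*Sohlh1* had the smallest p of the members and was the 1 that edgeR called. On GRCm39, here and for the other members, it spans bases 25733007 to 25737351 of chromosome 2, on the minus strand, and overlaps no other gene of the GENCODE annotation. Its levels were 43.9, 49.0, 50.7 and 46.1 CPM in wild type replicates A to D. In *Tra2b-cPEko* replicates A to D they were 38.1, 38.1, 35.9 and 37.3 CPM. All *Tra2b-cPEko* values lay below the lowest wild type value, and they were close together, with a coefficient of variation of 2.75% against 6.35% in wild type. The mean was 21.3% lower (log2 fold change -0.34, standard error 0.05, adjusted p by edgeR = 0.0341). An exact permutation test on log2 CPM gave p = 0.0286 (two-sided, 4 against 4 mice), the smallest that 70 arrangements allow. By its p, *Sohlh1* ranked 17 of all genes tested. DESeq2 gave it an adjusted p of 9.16e-06.

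The call of *Sohlh1* was close to the threshold and was made in 4 of the 8 fits without a mouse. Its adjusted p from edgeR was 0.119 without wild type replicate B, and 0.101, 0.108 and 0.148 without *Tra2b-cPEko* replicates A, C and D, while the log2 fold change stayed between -0.38 and -0.31 in the 8 fits without a mouse. Unadjusted, its p from edgeR was 0.000135 without wild type replicate B, where it was not called. Without *Tra2b-cPEko* replicate B, where it was called, the unadjusted p was 0.000109. The adjusted p also depends on the other genes tested, and these fits called 9 and 76 genes in all. Scaled to the 9 germ cell genes in place of all genes, the log2 fold change of *Sohlh1* was -0.29 with an adjusted p of 0.167. On that scale, the mean of log2 levels was lower by 0.28 and the 2 genotypes overlapped (exact permutation p = 0.0571, two-sided, n = 4 and 4). Only wild type replicate A, where the germ cell genes had their highest sum (2124 CPM), lay among the *Tra2b-cPEko* mice. These germ cell genes include *Hormad1*, which is also on the list of leptotene and zygotene spermatocytes used below. The part of spermatocytes in this scaling was not tested.

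SOHLH1 acts together with SOHLH2, its close relative in the same pathway. *Sohlh2*, on chromosome 3 from 55089265 to 55117382, was at 57.9, 54.6, 55.6 and 53.8 CPM in wild type replicates A to D and at 55.3, 49.3, 50.2 and 51.3 CPM in *Tra2b-cPEko* replicates A to D. Only *Tra2b-cPEko* replicate A fell among the wild type values. Its log2 fold change was -0.11 (95% interval -0.21 to 0.0016, adjusted p = 0.334 from edgeR), so that the interval reached from a level 13.7% lower to 0.112% higher. Within each library, there were 0.857 ± 0.069 *Sohlh1* reads per *Sohlh2* read in the 4 wild type mice and 0.726 ± 0.035 in the 4 *Tra2b-cPEko* mice (SD, n = 4). These ratios overlapped between genotypes, and were computed after the values of both genes had been seen. Of the ratios of *Sohlh1* to the 8 other members tested, 3 did not overlap and were lower in the *Tra2b-cPEko* mice, those to *Kit*, *Taf4b* and *Uchl1*. *Sohlh1* by itself already did not overlap, and no share of such ratios over all genes is given. The count therefore only describes these ratios and is no result about the members.

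*Figla* encodes the third basic helix-loop-helix factor among the members and is best known as an activator of zona pellucida genes in oocytes. It lies on chromosome 6 from 85993153 to 85997978 on the plus strand and had between 58 and 167 reads per mouse. Its levels were 3.78, 3.26, 2.40 and 2.63 CPM in wild type replicates A to D. In *Tra2b-cPEko* replicates A to D they were 1.94, 2.02, 1.54 and 1.58 CPM. The genotypes did not overlap, although wild type replicates C and D came close to the *Tra2b-cPEko* mice. The mean was 41.3% lower, with a log2 fold change of -0.77 (standard error 0.17) and an exact permutation p of 0.0286 (two-sided, n = 4 and 4). With an adjusted p of 0.0892 from edgeR it was not called, whereas DESeq2 gave an adjusted p of 0.00943. *Figla* also belongs to a list of meiosis genes that the study chose on these samples, so its direction here is not independent evidence. Relative to the germ cell genes it was lower by 0.68 on the log2 scale, still without overlap (exact permutation p = 0.0286, n = 4 and 4). Wild type replicates A and B, where *Figla* was highest, also had the highest summed level of 12 pachytene spermatocyte genes, 509 and 545 CPM, against 253 and 307 CPM in C and D and between 288 and 379 CPM in *Tra2b-cPEko* mice. The part of these cells in the *Figla* values was not tested.

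*Rhox13*, an X-linked homeobox gene of germ cells whose protein is known to appear as spermatogonia respond to retinoic acid, lies on chromosome X from 37210052 to 37218844. Its levels were 38.7, 38.5, 27.5 and 38.5 CPM in wild type and 27.5, 32.7, 25.1 and 29.7 CPM in *Tra2b-cPEko* replicates A to D. Wild type replicate C stood among the *Tra2b-cPEko* mice, and the other 3 wild type mice stood above all of them. It had a log2 fold change of -0.32 (standard error 0.12), and its adjusted p from edgeR was 0.258, and the exact permutation test gave p = 0.114 (two-sided, n = 4 and 4). Without wild type replicate C the log2 fold change was -0.43, with an adjusted p of 0.0386 from edgeR.

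*Kit*, the receptor gene, lies on chromosome 5 from 75735576 to 75817404. It was at 146, 132, 178 and 144 CPM in wild type and at 144, 138, 140 and 142 CPM in *Tra2b-cPEko* replicates A to D. The *Tra2b-cPEko* mice were alike, with a coefficient of variation of 1.92%, and lay inside the wild type range, which was stretched by replicate C. Its log2 fold change was -0.09 (95% interval -0.25 to 0.08, adjusted p = 0.606 from edgeR), and 0.0024 without wild type replicate C. That interval reached from a level 16.2% lower to one 5.52% higher.

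*Dmrt1*, on chromosome 19 from 25482860 to 25581693, encodes a DM domain factor that holds back meiotic entry in spermatogonia and also acts in Sertoli cells. Its levels were 225, 242, 243 and 276 CPM in wild type and 229, 221, 200 and 252 CPM in *Tra2b-cPEko* replicates A to D, with overlap. The log2 fold change was -0.13 (95% interval -0.29 to 0.04, adjusted p = 0.438 from edgeR). *Dmrtb1*, which acts later, at the exit from the mitotic programme, lies on chromosome 4 from 107533483 to 107543292. It was at 51.5, 60.5, 53.5 and 67.0 CPM in wild type and at 49.3, 52.2, 52.2 and 67.8 CPM in *Tra2b-cPEko* replicates A to D. Replicate D was the highest mouse of each genotype for both genes. The log2 fold change of *Dmrtb1* was -0.07 (95% interval -0.33 to 0.18, adjusted p = 0.806 from edgeR), and it was 0.000199 without wild type replicate D.

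*Taf4b* encodes a germ cell variant of a subunit of the general factor TFIID and is needed to keep up spermatogonia in ageing males. On chromosome 18 from 14916228 to 15035158, it was at 132, 115, 123 and 131 CPM in wild type and at 133, 126, 127 and 120 CPM in *Tra2b-cPEko* replicates A to D. It was the 1 member tested with a fold change above 0, a log2 fold change of 0.02 (95% interval -0.10 to 0.13, adjusted p = 0.918 from edgeR), whose sign turned when wild type replicate B, or else *Tra2b-cPEko* replicate A, was left out. *Uchl1*, on chromosome 5 from 66832748 to 66845009, was at 273, 290, 307 and 318 CPM in wild type and at 293, 265, 261 and 290 CPM in *Tra2b-cPEko* replicates A to D. The genotypes overlapped, with a log2 fold change of -0.10 (95% interval -0.22 to 0.02, adjusted p = 0.422 from edgeR). *Kit*, *Sohlh2* and *Uchl1* overlap noncoding genes on the other strand, whose reads could not be told apart where the counting did not use strand, which is not stated. *Taf4b* holds a pseudogene on its own strand, which strand cannot separate.

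Across members, the *Tra2b-cPEko* mice lay mostly under the wild type mean. Of the 9 members tested, 8, 8, 8 and 7 were below it in *Tra2b-cPEko* replicates A to D, and 5, 5, 5 and 4 in wild type replicates A to D. *Tra2b-cPEko* replicate C was the lowest of all 8 mice for 5 members. The median difference from the wild type mean was -0.10, -0.15, -0.18 and -0.07 on the log2 scale in *Tra2b-cPEko* replicates A to D. The 9 germ cell genes also had a median log2 fold change of -0.09 between genotypes, with 7 of 9 below 0. Their summed level was 2124 and 1979 CPM in wild type replicates A and B, while C and D, at 1799 and 1777 CPM, were among the *Tra2b-cPEko* mice at 1769 to 1873 CPM. By unadjusted p under 0.05, 7.07% of all genes tested were lower and 8.22% higher. Of the germ cell genes, 3 were lower by it, *Ddx4*, *Piwil2* and *Tdrd1*, and 0 higher, the same count as among the members, and DESeq2 called 0. Their part in the members' values was not tested. Relative to these genes, differences of mean log2 levels were within 0.1 of 0 for *Kit*, *Sohlh2*, *Dmrt1*, *Dmrtb1*, *Taf4b* and *Uchl1*, and *Rhox13* was lower by 0.24.

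In the transcripts themselves, the 4 letters AGAA, of the kind that Tra2β is known to bind in RNA, were rare in *Sohlh1* and *Rhox13*. The longest coding transcript of GENCODE held 2.17 of them per kb in both genes, and 2.06% of 21623 genes had fewer. The median gene had 7.16 per kb. *Figla* had 6.59, *Kit* 7.50, *Taf4b* 8.33, *Sohlh2* 9.90 and *Dmrt1* 10.7 per kb. *Prdm13* (3.15), *Uchl1* (5.34) and *Dmrtb1* (6.50) were also under the median in these units. These letters were counted on the sense strand of spliced transcripts and do not show binding.

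The genes around the members gave 0 calls by edgeR's adjusted p outside the members, over 5 lists of related genes, and unadjusted p under 0.05 in the counts that follow. By that unadjusted p, 7.07% of all genes tested were lower and 8.22% higher. Genes named only because such a count was 5 or fewer were chosen after their values were seen. In KIT signalling, with 15 genes tested, 2 were higher, the kinase and adaptor genes *Lyn* and *Pik3r1*, and 0 lower, and the median log2 fold change was 0.03. *Pik3r1* had the largest log2 fold change of that list, 0.25 (adjusted p = 0.299 from edgeR). The ligand gene *Kitl*, made by Sertoli cells, was at 214 ± 35.1 CPM in wild type and 224 ± 11.7 CPM in *Tra2b-cPEko* testes (SD, n = 4), and DESeq2 called 0 genes of the list. In the retinoic acid list, 2 of 10 were lower and 0 higher, *Aldh1a2*, which makes retinoic acid, and the receptor gene *Rarg*, and the median was -0.10. Its most abundant gene, *Aldh1a1*, had a log2 fold change of 0.04, and DESeq2 called 0 of its genes.

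Among other genes of differentiating spermatogonia, 3 of 10 were lower and 0 higher, beside 7.07% and 8.22% of all genes tested. The median log2 fold change was -0.21. The 3 lower genes were the cyclin gene *Ccnd2* (-0.31), the homeobox gene *Esx1* (-0.43) and *Sall4* (-0.21), a factor that undifferentiated cells also express. DESeq2 called *Ccnd2* and *Esx1*, where it called 1.14% of 18149 genes as lower. The gene *Stra8*, which retinoic acid induces before meiosis, had a log2 fold change of -0.28 (adjusted p = 0.453 from edgeR), and the most abundant gene, *Tex15*, -0.01. The oocyte programme, 6 of whose 12 genes were tested, had 2 lower and 0 higher, *Figla* and *Kpna7*, which had 9 to 33 reads per mouse and a log2 fold change of -0.87 (adjusted p = 0.169 from edgeR). *Lhx8*, the most abundant gene of that programme, was at 6.83 ± 1.58 CPM in wild type and 6.89 ± 0.841 CPM in *Tra2b-cPEko* testes (SD, n = 4). The median of the 6 was -0.33.

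Relatives and partners of the members gave 5 of 24 lower and 0 higher, beside 7.07% and 8.22% of all genes tested, with a median log2 fold change of -0.08. These 5 were *Taf12* and *Taf7l*, which encode TFIID subunits, *Dmrt3*, *Rhox2a* and the UCHL1 relative *Uchl5*. *Taf12*, the histone fold partner of TAF4 proteins, was at 33.3 ± 1.87 CPM in wild type and 28.6 ± 0.883 CPM in *Tra2b-cPEko* testes (SD, n = 4). It was lower without overlap, as were 4.18% of all genes tested, with an adjusted p of 0.114 from edgeR and 0.0172 from DESeq2. The largest log2 fold changes in either direction were those of *Dmrtc2* (-0.39, adjusted p = 0.463 from edgeR), at 46.4 and 50.3 CPM in wild type replicates A and B but 25.5 and 30.0 CPM in C and D, where the *Tra2b-cPEko* mice had 26.5 to 31.1 CPM, and of *Tcf4* (0.11, adjusted p = 0.572), which encodes an E protein of the class that tissue-specific helix-loop-helix factors pair with.

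**Figure D3:**
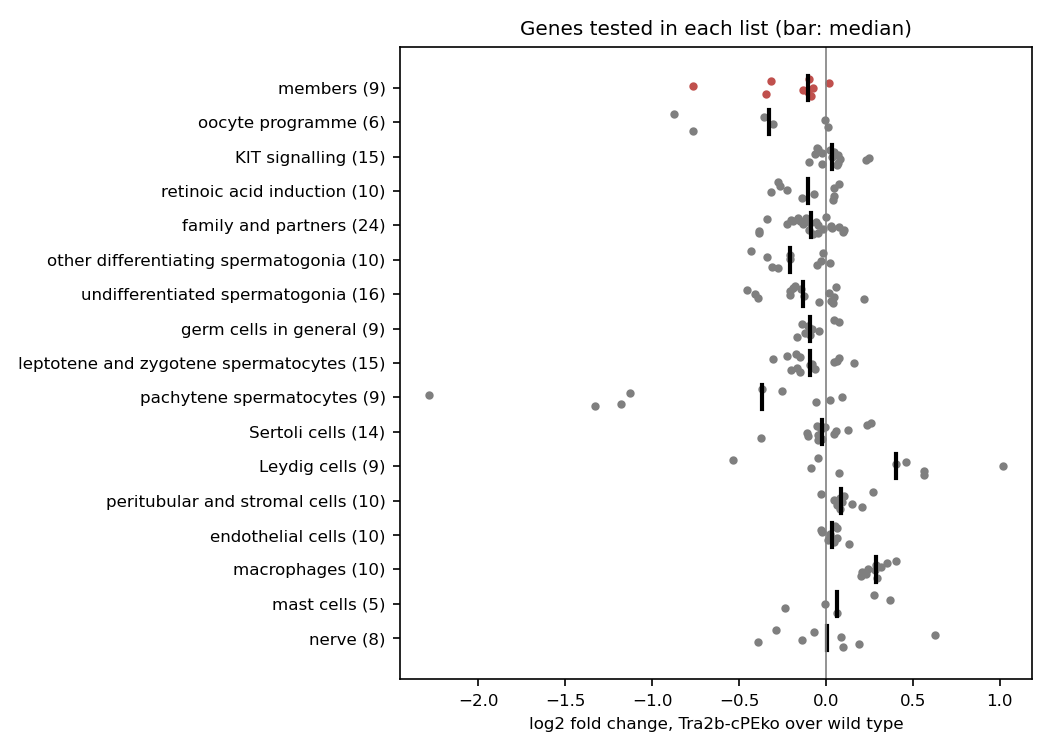
Log2 fold change (horizontal axis, *Tra2b-cPEko* over wild type) of each gene tested in the list of members (red) and 16 other lists (grey), with the number tested in parentheses and a black bar at the median. Medians are -0.11 for the members, -0.21 for other genes of differentiating spermatogonia, -0.37 for pachytene spermatocytes, 0.40 for Leydig cells and 0.29 for macrophages.

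Markers of the cells in the testis moved as follows between genotypes, by edgeR's unadjusted p under 0.05, and their part in the members' values was not tested. By that p, 7.07% of all genes tested were lower and 8.22% higher, and DESeq2 called 1.14% of 18149 genes as lower. Of 16 genes of undifferentiated spermatogonia, 3 were lower, *Neurog3*, *Pou5f1* and *Sall4*, and 0 higher. *Neurog3*, which marks cells about to differentiate, was at 5.28 ± 0.514 CPM in wild type and 3.86 ± 0.485 CPM in *Tra2b-cPEko* testes (SD, n = 4). It was lower without overlap, as were 4.18% of all genes tested, with an adjusted p of 0.130 from edgeR and 0.0291 from DESeq2. *Zbtb16*, the most abundant gene of this list, had a log2 fold change of 0.04. In leptotene and zygotene spermatocytes, 3 of 15 were lower, the synaptonemal complex and cohesin genes *Stag3*, *Syce1* and *Syce2*, and 0 higher, and DESeq2 called *Stag3* (adjusted p = 0.0256). *Stag3* is on the same list of meiosis genes as *Figla*, which the study chose on these samples, so its direction is not independent evidence. The summed level of this list was 2804 and 2489 CPM in wild type replicates A and B, 2064 and 2173 CPM in C and D, and 2112 to 2244 CPM in *Tra2b-cPEko* mice, so that A and B stood apart. In pachytene spermatocytes, with a median log2 fold change of -0.37 and 7 of 9 below 0, 1 of 9 was lower, *Spag6l*, with a log2 fold change of -2.28, which was above 3 CPM only in wild type replicates A and B.

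Somatic markers were counted in the same way, where 8.22% of all genes tested were higher and 7.07% lower. DESeq2 called 301 of 18149 genes as higher. For macrophages, 6 of 10 genes were higher and 0 lower, and the summed level was between 148 and 185 CPM in wild type and between 184 and 221 CPM in *Tra2b-cPEko* testes. Their most abundant gene, *Mrc1*, had a log2 fold change of 0.32 (adjusted p = 0.193 from edgeR), and DESeq2 called *Csf1r* and *Cx3cr1*, with adjusted p of 0.0400 and 0.0256. In Leydig cells, 2 of 9 were higher, *Hsd3b6* (log2 fold change 1.02) and *Lhcgr* (0.46), and 1 lower, *Hsd17b3* (-0.54), and their median was 0.40. DESeq2 called *Hsd3b6* and *Lhcgr*, with adjusted p of 0.0308 and 0.00851. HSD3B6 and HSD17B3 are steroid-making enzymes and LHCGR is the receptor for luteinizing hormone. Sertoli cell genes had 1 higher, *Trf*, and 1 lower, *Amh*, of 14, and their median was -0.02. In peritubular and stromal cells 2 of 10 were higher, *Myh11* and *Tagln*, and 0 lower. Endothelial cell genes had 0 of 10 in either direction.

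Mast cells and nerve cells, outside the germ line and known to express members, were checked next. Leydig cells and other somatic cells were not examined as a source of *Kit* reads. By edgeR's unadjusted p under 0.05, 8.22% of all genes tested were higher and 7.07% lower. Mast cells carry KIT. Of their 8 markers, *Fcer1a* had 0 reads in all mice, 5 were tested, and 1, the histidine decarboxylase gene *Hdc*, was higher (log2 fold change 0.28, adjusted p = 0.124 from edgeR and 0.0275 from DESeq2). *Hdc* made up nearly all of the summed level, which was 31.2 to 37.7 CPM in wild type and 37.8 to 40.6 CPM in *Tra2b-cPEko* mice, and without it the sum was 0.922 to 2.2 CPM and 1.40 to 1.71 CPM. Nerve cells express *Uchl1*. Of 8 nerve genes tested 1 was lower, *Elavl4* (log2 fold change -0.39), and 0 higher, and the most abundant, *Tubb3*, had a log2 fold change of 0.09.

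By a fixed rule, the genes with profiles most like *Sohlh1* and *Figla* over the 8 mice were found among 15477 genes, as the smallest root mean square difference of log2 CPM after subtraction of each gene's wild type mean. For *Sohlh1* they were *LOC118567464* at 0.057, *Gm16973* at 0.070 and *Mcf2l* at 0.085. For *Figla* they were *Prok2* at 0.110, *Pth2* at 0.119 and *Gm29941* at 0.132. *Pth2* is also on the list of meiosis genes chosen on these samples. Likeness on 8 mice is a description of these libraries.

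The share of reads that the counting assigned to no feature also differed between genotypes. Such reads may lie in introns as well as between genes, and the counts do not separate these. Wild type mice had 12.4% to 12.8% of all reads in this class and *Tra2b-cPEko* mice had 13.2% to 13.6%, without overlap (exact permutation p = 0.0286, two-sided, n = 4 and 4). Reads on genes made up 67.6% to 69.0% of wild type libraries and 66.4% to 67.3% of *Tra2b-cPEko* libraries. Their part in the members' values was not tested.

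**Figure D4:**
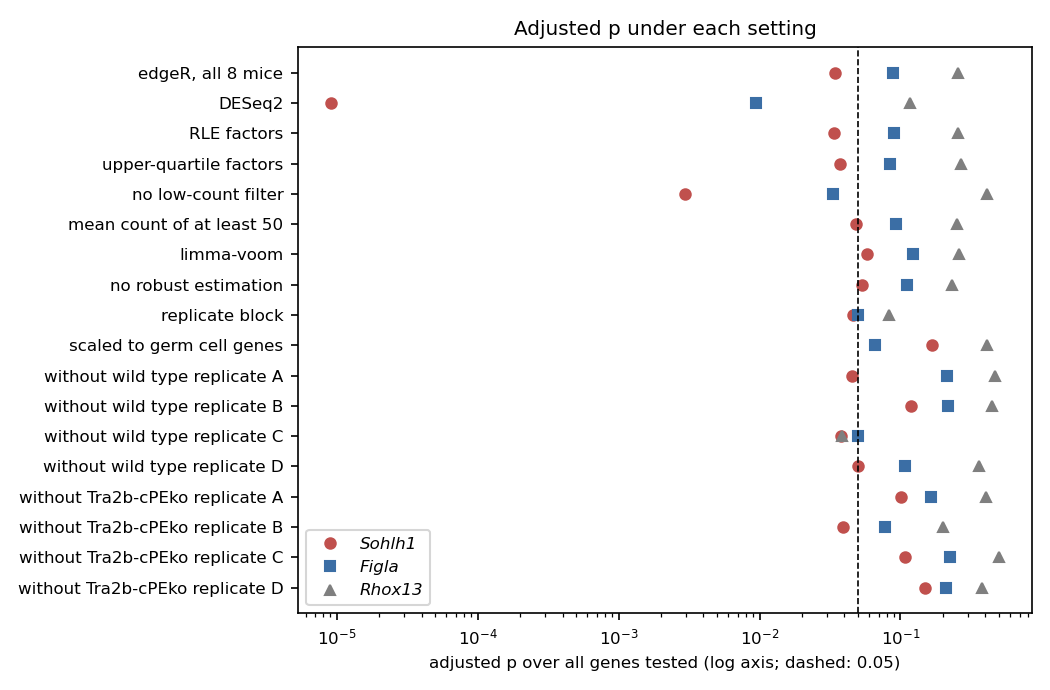
Adjusted p (horizontal log axis, dashed line at 0.05) of *Sohlh1*, *Figla* and *Rhox13* from edgeR with all 8 mice and from 17 alternatives (vertical axis). *Sohlh1* is below 0.05 in 10 of the 17, *Figla* in 4 and *Rhox13* in 1, the fit without wild type replicate C.

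Over 17 alternatives of normalization, filter, tool and mice, *Sohlh1* kept a log2 fold change between -0.38 and -0.29 and *Figla* between -0.86 and -0.64. The adjusted p of *Sohlh1* ran from 9.16e-06 to 0.167 and that of *Figla* from 0.00943 to 0.226. *Rhox13* stayed between -0.43 and -0.25. *Sohlh2*, *Dmrt1* and *Uchl1* were below 0 in each of the 17, with adjusted p of 0.288 or more.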

How the data were processed

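Raw counts per gene, 1 table per mouse, were deposited by the authors without normalization. The tables end with 5 summary lines of the form that htseq-count writes, which were left out of library sizes and tests and took between 31.0% and 33.6% of reads. The submitters' processing notes name HISAT2 2.2.1, SAMtools 1.7.1, HTSeq 2.0.2 and deepTools 3.5.1, and the study's methods name GRCm39, a stranded mRNA kit, Salmon and DESeq2. The strand setting is not given in the sources used here.

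Counts were fitted in R 4.3.3 with edgeR 4.0.16 (filterByExpr with least count 10 and least total 15, TMM, robust quasi-likelihood test, genotype only), with Benjamini-Hochberg adjustment over all genes tested and calls under 0.05. The biological coefficient of variation was 9.56%. Members were also compared by exact permutation of the mice, two-sided, on log2 CPM (prior count 2, 70 arrangements). Intervals are at 95%, from the quasi-likelihood fit. Alternatives were DESeq2 1.42.0, limma-voom (limma 3.58.1), RLE and upper-quartile factors, no filter, a mean count of at least 50, a block for the replicate letter, no robust estimation, scaling to germ cell genes, CPM without TMM factors, a prior count of 0.5 and fits without each mouse. No library is a copy of another of its genotype, since chi-square per degree of freedom was 6.24 to 19.1 between them. The scripts were tested on simulated data.

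The members and lists were chosen with earlier results of these data known. All members are named. From each other list, the text names called genes, the most abundant gene and the largest change in each direction at a mean of at least 1 CPM where these bear on the members. The search for CACGTG and the ratios between members were added once values had been seen. GENCODE vM39 on GRCm39 gave the positions, and promoters came from RefSeq on GRCm38.p6. BLAST+ 2.17.0 found no near-identical copy of a member. Splicing was not analysed here.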

Additional observations from a re-analysis of the deposited data

Results flagged for a closer look

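Of 56 groups of 4 mice tested for a mouse far from the others, 5 held one, where chance gives about 1 in 20, or 2.8. *Dmrtb1* was at 67.8 CPM in *Tra2b-cPEko* replicate D, far above the other 3 mice of that genotype. *Rhox13* was at 27.5 CPM in wild type replicate C, far below the other 3 wild type mice. The summed level of the mast cell markers was 37.7 CPM in wild type replicate B, above the other wild type mice, and 37.8 CPM in *Tra2b-cPEko* replicate B, below the others of its genotype. The share of reads assigned to no feature was 13.2% in *Tra2b-cPEko* replicate A, below the others of its genotype.

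The summary lines of the count tables, which no comparison of members used, held a difference between genotypes. The share of reads assigned to no feature was 13.4% on average in *Tra2b-cPEko* mice and 12.6% in wild type mice, without overlap.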

How the results depend on the processing

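The number of members called, 1 of 9 tested by edgeR, was 2 with DESeq2, with no low-count filter and with the replicate block, and 0 with limma-voom, without robust estimation and scaled to germ cell genes. It ranged from 0 to 3 in the fits without a mouse, 3 without wild type replicate C and 0 without wild type replicate B and *Tra2b-cPEko* replicates A, C and D. Where the main count of 30 genes stood, DESeq2 gave 507, limma-voom 11, upper-quartile factors 58, no robust estimation 12, no low-count filter 123, a minimum mean count of 50 gave 14, the replicate block 67 and scaling to germ cell genes 103, of which 99 were higher and 4 lower, with the median of all genes shifted by 0.06 (log2). Without a mouse the range was 3 to 84. With upper-quartile factors 53 of the 58 were higher, and with DESeq2 301 of the 507. The 2 members without overlap became 1, *Figla*, relative to germ cell genes, where 1.08% of all genes were lower without overlap. Without a mouse there were 2 or 3 such members, beside 5.12% to 8.36% of all genes. In the fits without a mouse, the log2 fold change of *Kit* ran from -0.14 to 0.0024 and turned sign without wild type replicate C, that of *Dmrtb1* ran from -0.18 to 0.000199 and turned without wild type replicate D, and that of *Taf4b* ran from -0.022 without wild type replicate B to 0.040, and was -0.012 without *Tra2b-cPEko* replicate A. The cause was not tested for any of these.

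The replicate letters did not pair the mice, since correlations of deviations between mice of the same letter were 0.027, -0.136, -0.039 and 0.116 for A to D. With the block, *Sohlh1* had an adjusted p of 0.0462, *Figla* 0.04997 and *Rhox13* 0.0829 from edgeR. Depth limits *Prdm13*, with a total of 7 reads in wild type mice and 14 reads in *Tra2b-cPEko* mice. Its adjusted p was 0.565 from edgeR with no low-count filter, and the exact permutation p was 0.114 (two-sided, n = 4 and 4). Genotype and the age or litter of single mice, which are not given beyond P12, cannot be told apart.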

Other observations

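The CACGTG letters of the *Sohlh1* promoter stand at least 3 times in the promoter windows of 25 genes by RefSeq symbol, 21 of which were tested. By edgeR's unadjusted p under 0.05, 6 of the 21 were lower in *Tra2b-cPEko* testes, or 28.6%, beside 7.07% of all genes, and 2 were higher. *Sohlh1* was 1 of the 6 and the 1 gene called. The other lower genes were *Amdhd2*, *Fam178b*, *Nxf2*, *Osgep* and *Ube2b*, and the higher genes *Klf15* and *Rragb*. *Nxf2* belongs to a list of meiosis genes that the study chose on these samples, so its direction is not independent evidence. The median log2 fold change of the 21 was -0.07. Among the 1579 tested genes with at least 1 match, 143 were lower, or 9.06%, 97 were higher and 3 were called. The letters were chosen after the *Sohlh1* sequence and fold change had been seen, and these genes were named after their values were seen, so the counts are a description with no test.

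Of these genes, *Fam178b* had the largest decrease on the log2 scale, a log2 fold change of -0.45 (adjusted p = 0.135 from edgeR). It was at 27.7 ± 5.41 CPM in wild type and 20.3 ± 0.281 CPM in *Tra2b-cPEko* testes (SD, n = 4). *Ube2b*, which encodes a ubiquitin-conjugating enzyme needed in spermatogenesis, was at 114 ± 5.45 CPM and 103 ± 0.815 CPM, with an adjusted p of 0.174.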
